A study of Mus musculus with 17 samples.

Results

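Microglia are the resident macrophages of the brain. They are kept alive by signalling through the receptor Csf1r, survey the tissue with motile processes that sense nucleotides through P2ry12 and the neuronal chemokine fractalkine through Cx3cr1, and make the C1q chains that tag material for removal. In mice exposed to stress they are studied for changes in number, in shape and in inflammatory genes. The nuclei described here were those carrying microglial transcripts in single nucleus RNA-seq (sNucDrop-seq) of mouse neocortex. Each droplet of the assay pairs a nucleus with a bead that labels its RNA with a barcode, and transcripts are counted as unique molecular identifiers (UMIs).

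A barcode was a member if at least 2 of 8 marker genes (Cx3cr1, Csf1r, P2ry12, C1qa, C1qb, C1qc, Inpp5d and Ctss) had a UMI, if the neuronal genes Slc17a7, Gad1 and Gad2 together had at most 1 UMI, and if no UMI came from Gja1, Aqp4, Mog, Pdgfra or Flt1, which mark astrocytes, oligodendrocytes, their precursors and endothelial cells. Of 40000 deposited barcodes, 31486 held 600 to 5000 genes and under 5% mitochondrial UMIs, and 237 of these were members. The remaining 31249 are called other nuclei. Members were chosen by the measured UMIs of these 16 genes, so the levels of these genes are descriptions.

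The sNucDrop-seq mice were 4 Control and 4 chronic unpredictable stress (CUS) C57BL/6 males (C57BL/6J in the study's methods) at postnatal day 80, and the bulk nuclear RNA-seq of the medial prefrontal cortex (mPFC) used 4 Control and 5 CUS males at postnatal day 90. CUS began at 9 to 10 weeks of age and lasted 12 days, with 3 stressors each day. The sNucDrop-seq tissue was taken 24 h after the last stressor. Per the study's methods, the bulk mice went through behavioural testing and were taken 24 h after their last test. Assay, brain region, age, behavioural testing and time since stress therefore cannot be told apart between nuclei and bulk. Control mice were handled daily and kept in another room, so housing and handling cannot be told apart from stress. The mice carried no transgene. Wild-type neocortex also contains macrophages of the brain borders and blood leukocytes, which can share markers with microglia. The 8 samples gave 24198 to 116080 UMIs in members per mouse, and 50 deposited barcodes occurred in more than 1 mouse, none of them a member.

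Members did carry a microglial programme. Of 43 microglial identity genes outside the rule, all had UMIs in members, and their median level was 56.0-fold that of other nuclei, in CPM (counts scaled to the same library total). The lowest ratio was 0.989, for Arhgap15, and the summed list was 24.4-fold higher. Of the 15 genes with the largest ratios among those found in at least 25% of members, 13 are reported here: Selplg, Slco2b1, Siglech, Cyth4, Laptm5, Fcrls, Hpgds, Ly86, Adap2, Dock8, Fyb, Apbb1ip and Tgfbr1. Selplg, a selectin ligand of leukocytes, stood at a ratio of 99.4 and Siglech, a lectin of microglia, at 89.8. Tgfbr1, the receptor through which TGF-beta maintains microglial identity, was found in 65.0% of members and 4.71% of other nuclei. The median depth was 1765 UMIs in members and 2096 UMIs in other nuclei, and the part of depth in these shares was not tested.

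The promoters of these genes and of the rule markers were searched for 1 sequence feature, as a description. The letters GAGGAAGT are a form of the sequence recognised by PU.1 (Spi1), a transcription factor that microglia require, and were read on both strands from 250 bases before to 50 bases after the start of each gene. Of the 15 leading genes and 8 rule markers, 18 had a RefSeq promoter (build GRCm38.p6), and 7 of these 18 (38.9%) held the motif. Among all 27025 genes with a promoter 3.69% held it. The 7 genes were Apbb1ip, C1qc, Ctss, Cyth4, Hpgds, Inpp5d and Slco2b1. Of these, C1qc, Ctss and Inpp5d are rule markers and the others were picked for their ratio. The higher share therefore describes genes chosen as markers or for their ratio, and is not independent evidence of what the members are. Whether it differs from the share among other immune genes was not tested. A match of letters is not evidence of binding. The 3 stretches in which the motif lies wholly before the start and within it are shown because they belong to a complement chain, to a prostaglandin D synthase and to a phosphatase of immune receptor signalling, each on the strand of its gene, with the motif or its reverse complement in capitals.
C1qc, chr4:136893076-136893135, minus strand: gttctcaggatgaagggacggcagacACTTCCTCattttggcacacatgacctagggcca
Hpgds, chr6:65144746-65144805, minus strand: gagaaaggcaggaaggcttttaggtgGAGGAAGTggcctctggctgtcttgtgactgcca
Inpp5d, chr1:87620266-87620311, plus strand: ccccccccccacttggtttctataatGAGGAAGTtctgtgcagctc
C1qc RNA was found in 36.3% of members against 0.621% of other nuclei, Hpgds RNA in 45.2% against 0.890%, and Inpp5d RNA in 44.7% against 1.15%. C1qc and Inpp5d are rule markers and Hpgds was picked for its ratio, so these differences follow from the choice of members and genes.

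The label of microglia held for only part of the members. The share of UMIs from 17 pan-neuronal genes had separate peaks, with 6 members between 1.5% and 2%. In all, 78 members lay under 2% and 159 at or over it. The 78 members had a median of 0.770% neuronal UMIs, 1059 UMIs and 15 of the identity genes. The 159 members had a median of 3.93% neuronal UMIs, against 4.12% in other nuclei, with 2425 UMIs and 7 identity genes, and 16 of the 159 had no identity gene at all. Meg3, a noncoding RNA abundant in neurons, was found in 57.7% of the 78, in every one of the 159 and in 95.3% of other nuclei. Snhg11, a further neuronal noncoding RNA, was found in 43.6%, 98.7% and 93.8%. Both are among the 17 genes, so their difference across the 2% line follows from the cut. Depth also differed, at 1059 against 2425 UMIs, and its part was not tested. In the 78 members the summed rule markers reached 8572 CPM, in the 159 they reached 1589 CPM and in other nuclei 40.5 CPM. The summed neuron list, the measure cut at 2%, was 8441 CPM in the 78 and 40570 CPM in the 159, an order that follows from the cut. In other nuclei, of which 9.46% were under 2%, it was 41030 CPM. The 159 members held microglial and neuronal RNA together, and they are called microglial-marker nuclei here rather than microglia. Their neuronal level, chosen to be at or over 2%, lay near that of other nuclei.

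**Figure D1:**
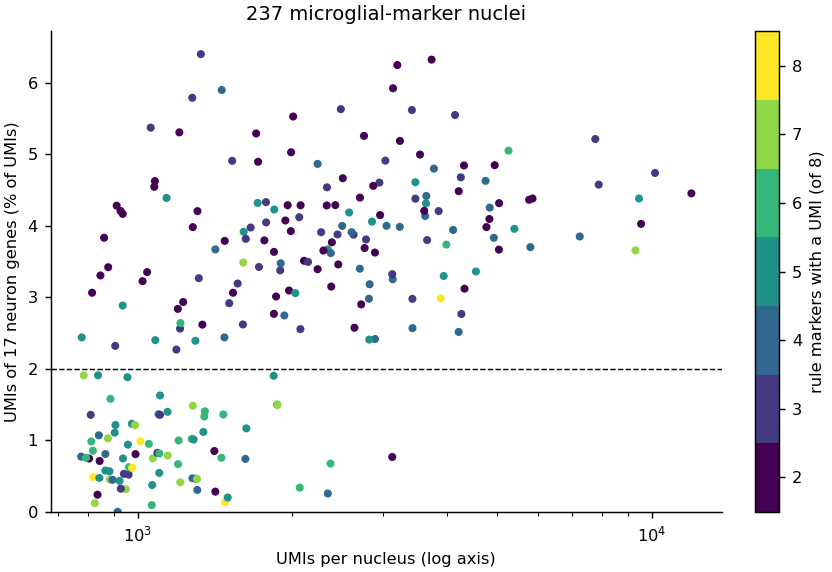
Each point is 1 of the 237 members, with its UMIs on a log axis, the percent of its UMIs from 17 neuron genes, and in colour the number of rule markers with a UMI. The dashed line at 2% separates 78 members below from 159 above, and members with 6 or more markers lie mostly below it.

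The number of markers followed the same division. Of the 75 members with 2 rule markers, 8 (10.7%) were under 2% neuronal UMIs. With 4 markers the share was 27.0% of 37, with 5 markers 51.3% of 39 and with 6 markers 85.7% of 21. Just outside the rule, the 1069 barcodes with 1 marker had a median of 0 identity genes and 3.46% were under 2% neuronal UMIs. The 42 barcodes left out for having 2 UMIs of the neuronal genes had a median of 10 identity genes, 4724 UMIs and 3.95% neuronal UMIs, against 7 identity genes, 2425 UMIs and 3.93% in the 159 members above the line. The 37 barcodes left out for 1 UMI of another glial or endothelial gene had a median of 9 identity genes, and 56.8% were under 2%. Barcodes on both sides of the floor of 600 genes held microglial RNA. The 30 members with 600 to 699 genes had a median of 14 identity genes and 80% were under 2%, and of 40 barcodes with 500 to 599 genes that met the other limits 75% were under 2%.

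**Figure D2:**
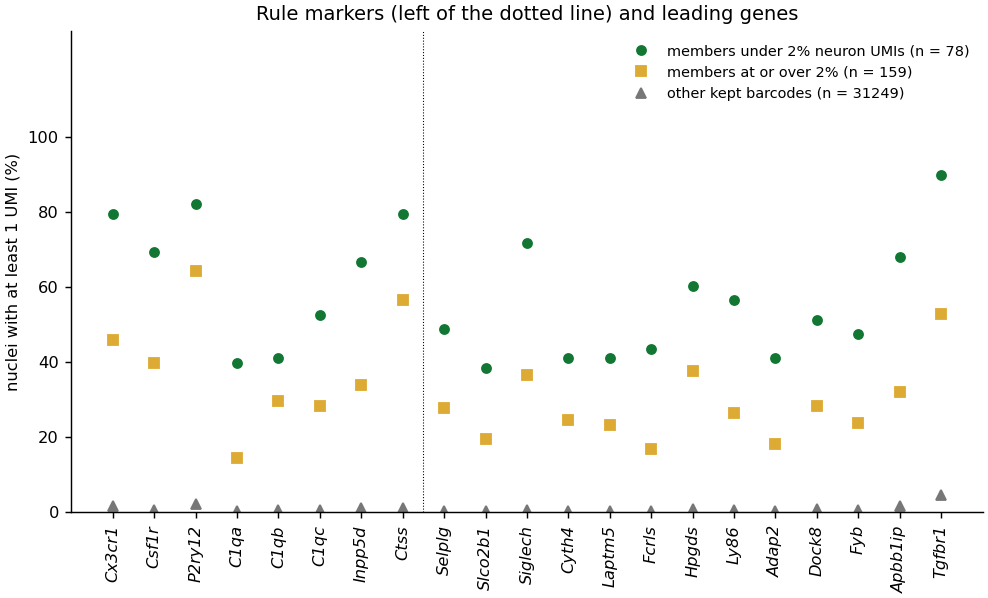
Percent of nuclei with at least 1 UMI of the 8 rule markers and 13 of the leading genes, in members under 2% neuronal UMIs, in members at or over 2% and in other nuclei. For each of these 21 genes the share was highest in the members under 2% and at most 4.71% in other nuclei.

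RNA of other cell types was also found in members. The 10 oligodendrocyte genes summed to 4281 CPM in the 78 members, 546 CPM in the 159 and 991 CPM in other nuclei, so in the 78 they stood 4.32-fold above other nuclei, and the rule markers there reached 8572 CPM. Mog, which the rule excludes, was at 0 in members. The astrocyte list was at 1921, 842 and 1353 CPM, also highest in the 78, and Gja1 and Aqp4 were at 0. The endothelial list was at 32.9, 19.6 and 48.9 CPM, with Flt1 at 0. The list of 10 border macrophage genes was at 143 CPM in the 78, 50.1 CPM in the 159 and 5.82 CPM in other nuclei. Of these genes 4 (Cbr2, Cd209f, Clec12a and Lyve1) had no UMI in members. At least 1 UMI of the list was found in 27 members (11.4%) and in 1.22% of other nuclei, and 2 members held at least 3 UMIs of this list. Both came from CUS replicate 1, and their UMIs included 4 of Mrc1 and 2 of Cd163, which are scavenger receptors of perivascular macrophages. The part of these cell types in the results below was not tested.

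One member was a nucleus with T cell or natural killer cell transcripts. It came from CUS replicate 1, had 991 UMIs, and met the rule through 2 UMIs of Cx3cr1 and 1 of Ctss, which such cells also express. It held all 17 UMIs of the chemokine Ccl5 found in members, together with 5 of the granzyme Gzma and 2 of Lck, a kinase of T cells. All other nuclei together held 8 Ccl5 UMIs. A further member, of 11946 UMIs in CUS replicate 3, held 3 UMIs of the genes listed for other immune cells, 1 each of Skap1, Themis and Cd247. Of the 15 genes listed for other immune cells, 8 had no UMI in members. The summed list ranged from 17.2 to 41.3 CPM in Control mice and from 15.6 to 318.5 CPM in CUS mice, the highest value being that of CUS replicate 1.

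The share of members among kept barcodes did not differ detectably between the groups. It was 0.377%, 1.12%, 0.847% and 0.573% in Control replicates 1 to 4 (13, 54, 42 and 13 members), and 0.764%, 0.551%, 0.860% and 0.698% in CUS replicates 1 to 4 (31, 19, 31 and 34 members). The CUS range lay inside the Control range. The means were 0.729% ± 0.323 (SD, n = 4) and 0.718% ± 0.130 (SD, n = 4), and the exact two-sided permutation test gave p = 0.943, where 0.0286 is the smallest value that 4 against 4 mice can give. The 95% Clopper-Pearson interval of 1 mouse ran from 0.201% to 0.644% in Control replicate 1 and from 0.841% to 1.46% in Control replicate 2, covering counting error only. Thinned to 1000 UMIs per barcode, which kept 14498 of 15501 Control and 14293 of 15985 CUS barcodes, the shares were 0.516% ± 0.220 and 0.433% ± 0.189 (n = 4, exact permutation p = 0.600). The members under 2% were spread less evenly, with 4, 34, 5 and 1 in Control and 11, 4, 10 and 9 in CUS mice. Control replicate 2 thus held 34 of the 78. Their share averaged 0.241% ± 0.310 in Control and 0.212% ± 0.0770 in CUS (n = 4, exact permutation p = 0.971). The Control mean rested on replicate 2, at 0.704%. The other Control mice were at 0.0441% to 0.116%, against 0.116% to 0.277% in CUS mice.

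Many more barcodes with microglial RNA lay below the floor on genes. Between 200 and 599 genes, 279 barcodes met the other limits, of which 91.0% were under 2% neuronal UMIs and the median was 9 identity genes. They numbered 66, 0, 0 and 98 in Control and 25, 44, 45 and 1 in CUS mice. The files hold 5000 barcodes for each mouse and reached these small barcodes in some mice only: Control replicate 3 had no barcode under 600 genes and Control replicate 4 had 2399. With a floor of 400 genes and under 2% neuronal UMIs, 178 barcodes remained, at 0.496% ± 0.268 in Control and 0.510% ± 0.334 in CUS (n = 4, exact permutation p = 0.943). These numbered 24, 34, 5 and 18 in Control and 29, 13, 45 and 10 in CUS mice.

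**Figure D3:**
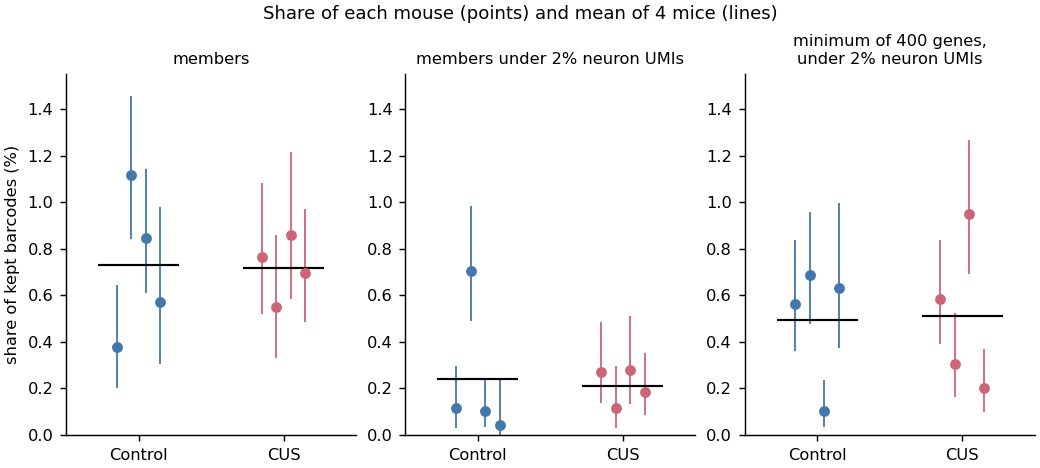
Share of kept barcodes in each mouse with its 95% Clopper-Pearson interval, and the group mean as a line, for all members, for members under 2% neuronal UMIs, and with a floor of 400 genes under 2%. Control and CUS mice overlap in each panel, and Control replicate 2 stands at 0.704% in the middle panel.

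Depth per member differed more among mice than between the groups. The median UMIs per member were 1528, 1205, 2360.5 and 2299 in Control and 1603, 2897, 1476 and 1579 in CUS mice. The group means were 1848 ± 572 and 1889 ± 674 (SD, n = 4, exact permutation p = 0.943).

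UMIs of the members were summed per mouse and CUS was compared with Control by the quasi-likelihood test of edgeR, at an adjusted p (Benjamini-Hochberg) of 0.2. Of 4982 genes tested, 2 passed, Adarb2 and Vip, both lower in CUS and both also past 0.05, and no gene rose. This is 0.0401% of the genes tested. The unadjusted p was under 0.05 for 122 genes that were higher (2.45%) and 88 that were lower (1.77%), together 4.22%.

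Adarb2 encodes an adenosine deaminase-like RNA-binding protein and marks interneurons that derive from the caudal ganglionic eminence. Its UMIs in members were 17, 42, 31 and 20 in Control and 3, 1, 11 and 2 in CUS mice, which is 702.5, 367, 267 and 649 CPM against 39.8, 17.2, 164 and 31.1 CPM. Every Control mouse was above every CUS mouse. The log2 change was -2.68 ± 0.42 (SE, adjusted p = 3.81e-05 in edgeR). Among the genes tested 2.45% had groups that did not overlap. Vip encodes the vasoactive intestinal peptide of the interneurons of that name. Its UMIs were 6, 17, 9 and 21 in Control and 1, 0, 1 and 6 in CUS mice, at 248, 149, 77.5 and 682 CPM against 13.3, 0, 14.9 and 93.4 CPM. The groups overlapped through CUS replicate 4. The log2 change was -2.76 ± 0.58 (SE, adjusted p = 0.0183 in edgeR).

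These UMIs came from few nuclei. Members with at least 3 Vip UMIs numbered 2, 1, 1 and 1 in Control and 0, 0, 0 and 1 in CUS mice. The 5 Control nuclei held 51 of the 53 Vip UMIs and 72 of the 110 Adarb2 UMIs of Control members. Each of the 5 also held exactly 1 UMI of Slc17a7, Gad1 or Gad2, the most that the rule allows, and 2.77% to 4.32% neuronal UMIs, with 5 to 14 microglial identity genes. Nuclei with at least 3 Vip UMIs made up 15.4%, 1.85%, 2.38% and 7.69% of members in Control mice and 1.06% to 1.45% of other nuclei in the 8 mice. A requirement of no UMI of Slc17a7, Gad1 or Gad2 left 158 members. It removed the 5 Control nuclei by its definition, so it cannot test their part. Among the 158 the log2 difference of Adarb2 was -1.74 (adjusted p = 0.999 in edgeR), Vip was too low to be tested and no gene passed. Vip did not pass in DESeq2 (log2 difference -3.18, adjusted p = 0.999), with at least 3 rule markers (-3.56, adjusted p = 0.304), without Control replicate 4 (-2.02, adjusted p = 0.674) or without CUS replicate 1 (-2.51, adjusted p = 0.440), so its log2 difference was larger than in the full set in the first and second of these.

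In other nuclei both genes lay at close levels in the groups. Adarb2 was at 266.5 ± 42.5 CPM in Control and 232.8 ± 50.4 CPM in CUS (SD, n = 4), and Vip at 55.5 ± 5.69 and 64.6 ± 10.8 CPM. The effect in members minus the effect in other nuclei of the same mice was -2.44 ± 0.41 for Adarb2 (log2, SE, adjusted p = 9.32e-05) and -2.98 ± 0.58 for Vip (adjusted p = 0.00328, and 0.255 without Control replicate 4) in an edgeR fit with each mouse as a term. These 2 genes were the only ones of 4982 (0.0401%) that passed 0.2 in that fit, and 236 (4.74%) had an unadjusted p under 0.05. In members under 2%, Adarb2 was at 32.9 CPM over all mice, against 270 CPM in the 159 and 250 CPM in other nuclei.

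**Figure D4:**
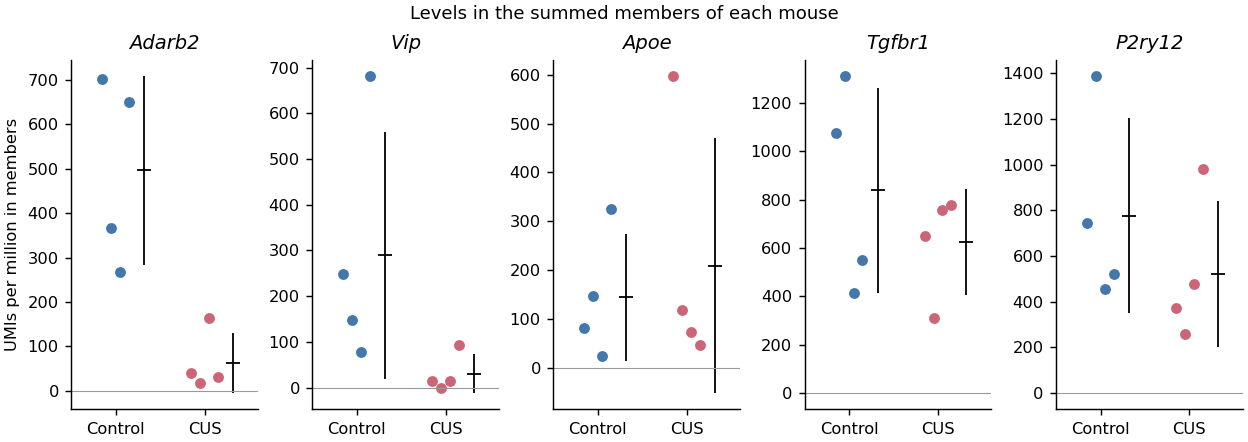
CPM in the summed members of each of 4 Control and 4 CUS mice (points) with the mean and SD (bars), for the 2 genes that passed and for Apoe, Tgfbr1 and P2ry12, which did not. Adarb2 separates the groups, Vip overlaps at 1 CUS mouse, and the highest Apoe value is 597 CPM in CUS replicate 1.

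Genes with the smallest p that did not pass were named only where the groups did not overlap. On the higher side the genes reported here were Ece1, Arhgef1, Tecpr2, Acss2, Plcb4, Camk1 and Wdr70. Ece1, the endothelin-converting enzyme, had 0, 1, 2 and 0 UMIs in Control and 13, 3, 2 and 4 in CUS mice, with a log2 difference of 2.83 ± 0.79 (SE, adjusted p = 0.727 in edgeR). Arhgef1, a guanine nucleotide exchange factor of leukocytes, had 0, 3, 0 and 0 against 13, 3, 3 and 3 UMIs, at 2.83 ± 0.80 (adjusted p = 0.727). Without Control replicate 2, the 1 Control mouse with UMIs of Arhgef1, it passed 0.2 (adjusted p = 0.122) against a group at 0 UMIs in each mouse, for which no fold is given. In both genes CUS replicate 1 gave 13 UMIs and the other mice at most 4. The other 5 had log2 differences from 1.25 (Plcb4, a phospholipase) to 1.82 (Tecpr2, an autophagy protein). On the lower side were Sema3e, Scg2, Rnf41, Copb1, Pfn2 and Dhx9, with log2 differences from -2.52 (Rnf41, a ubiquitin ligase) to -1.31 (Dhx9, an RNA helicase) and adjusted p = 0.994 in each. Scg2, the secretogranin II of neuronal dense-core vesicles, was found in 7.69% of members under 2% and 27.7% of the others, close to the 27.3% of other nuclei.

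None of the microglial genes passed. The test had limited reach: in simulated data, 200 of 4982 genes were given a known difference between the groups. With a log2 difference of 1, edgeR at 0.2 found 15.5% of these 200, and with a log2 difference of 2 it found 79%. Most differences of the smaller size would thus be missed, and the lack of calls does not show that these genes were unchanged. The share found at an adjusted threshold depends on how many genes differ, and fewer than 200 changed genes were not simulated. The 13 lists of microglial and macrophage genes included lists of inflammation, interferon, glucocorticoid, ion channel and motility genes. Not all were raised in members, and the summed glucocorticoid list was at 0.993-fold other nuclei. The lists held 217 genes besides the rule markers. Of these 87 were tested, 44 were higher and 43 lower in CUS, and the lowest adjusted p was 0.994. Their median log2 difference was 0.01, against 0.04 over all 4982 genes, and none had groups that did not overlap, against 2.45% of all genes. Unadjusted p under 0.05 was reached by 4 of the 87, a share near the 4.22% of all genes. These were Mef2a, Siglech and Elmo1, with lower values in CUS, and Kcnq3, a neuronal potassium channel subunit, with higher values. The balance of directions changed with the choice of barcodes. An alternative added after seeing the data had a floor of 400 genes and under 2% neuronal UMIs. It held 5 to 45 barcodes per mouse, and the files reached barcodes under 600 genes unevenly among mice. There 70 of 92 tested genes besides the rule markers were higher and 22 lower, with a median of 0.28. Over all genes 1050 of 1997 were higher, with a median of 0.04. There 6 of the 92 had an unadjusted p under 0.05, all of them higher, against 2.6% of all genes, and the lowest adjusted p among the 92 was 0.999.

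The rule markers, which chose the members, are given as a description. P2ry12 had 744, 1389, 457 and 519 CPM in Control and 372, 257, 476 and 981 CPM in CUS mice, and Cx3cr1 496, 603, 310 and 162 against 358, 274, 595 and 560 CPM. The values of both genes overlapped between the groups. Across the 8 markers 3 were higher and 5 lower, and with the floor of 400 genes and under 2% all 8 were higher. The identity list had 38 genes tested, of which 9 were higher and 29 lower, with a median of -0.26. Its direction changed with the choice of barcodes: with a floor of 400 genes and under 2% neuronal UMIs, 29 of 42 tested genes were higher and the median was 0.26. The summed identity list was at 6240, 11590, 4359 and 5130 CPM in Control and 5587, 2985, 7542 and 7815 CPM in CUS mice. The members under 2% made up 30.8%, 63.0%, 11.9% and 7.69% of members in these Control mice and 35.5%, 21.1%, 32.3% and 26.5% in these CUS mice. Control replicate 2 was highest in both, and the order of the other mice differed between the measures. Tgfbr1 was at 838 ± 425 CPM in Control and 624 ± 218 CPM in CUS (SD, n = 4). Siglech was at 490 ± 137 and 300.2 ± 75.0 CPM (log2 difference -0.64 ± 0.30 SE, adjusted p = 0.994). Its log2 difference was 0.08 with the floor of 400 genes and under 2%, and -1.34 with a floor of 1000 genes (adjusted p = 0.610 in edgeR).

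Genes of activated microglia were mostly low. Of 23 on that list, 6 (Axl, Csf1, Cst7, Itgax, Lgals3 and Spp1) had no UMI in members, which allows up to 3 counts in 550612, and 9 were tested. Of these 9, 6 were higher in CUS, with a median log2 difference of 0.35. Ctsb and Ctsd, lysosomal proteases, differed by 0.61 ± 0.33 and 0.64 ± 0.36 (log2, SE, adjusted p = 0.994 for each). With the floor of 400 genes and under 2%, 8 of 9 were higher with a median of 0.88, Ctsb at 1.08 and Ctsd at 1.01, and neither passed (adjusted p = 0.999). There 52 of 1997 genes (2.6%) had an unadjusted p under 0.05, and 3 of the 9 did, and no gene passed 0.2 (0.0%). Apoe, the lipid carrier that activated microglia raise, had 2, 17, 3 and 10 UMIs in Control and 45, 7, 5 and 3 in CUS mice. Its log2 difference of 0.90 rested on CUS replicate 1 and was -0.55 without it. Apoe stood at 0.910-fold other nuclei in members and at 1.97-fold in members under 2%. In bulk it was lower in CUS (log2 difference -0.43, adjusted p = 0.0541 in edgeR). The median ratio of the activated list in members was 1.31, and the part of RNA from other cell types in these differences was not tested.

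Inflammatory and interferon genes were close to the limit of detection. Of 26 inflammation genes, Ccl2, Ccl3, Cxcl10 and Il1b had no UMI and 4 were tested, with a median log2 difference of 0.27. Of 18 interferon-induced genes none was deep enough to be tested, and the summed list ranged from 94.8 to 210 CPM in Control and from 120 to 238 CPM in CUS mice. Isg15, a ubiquitin-like protein induced by interferon, had 4 UMIs in all members. Of the antigen presentation genes, B2m and H2-K1, both parts of class I molecules, were tested and differed by 0.20 ± 0.42 and 0.55 ± 0.66 (log2, SE).

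Receptors for neuronal signals, leaving out the rule markers Cx3cr1, Csf1r and P2ry12, numbered 13 tested, with 9 higher, 4 lower and a median of 0.18. For phagocytosis and complement 5 of 9 were higher (median 0.11). Mertk, which binds dying cells through bridging ligands, was at 338 ± 193 CPM in Control and 326 ± 145 CPM in CUS (SD, n = 4). Of 12 genes of actin and motility, 4 were higher (median -0.32). With the floor of 400 genes and under 2%, 10 of 12 such receptor genes (median 0.18), 11 of 13 phagocytosis and complement genes (0.16) and 8 of 11 actin and motility genes (0.09) were higher, so the last list turned in direction. The glucocorticoid receptor Nr3c1, through which the stress hormone corticosterone acts, had 289, 218, 224 and 130 CPM in Control and 133, 51.5, 298 and 140 CPM in CUS mice. Its log2 difference was -0.39 ± 0.39 (SE, adjusted p = 0.994). Of 9 glucocorticoid pathway genes tested, 7 were higher (median 0.10). Nr3c1 was found in 23.1% of members under 2%, which were shallower, and 31.1% of other nuclei. In CPM it stood at 1.58-fold other nuclei in members under 2% and at 1.09-fold in all members.

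In bulk nuclear RNA of the mPFC, microglial genes were measured in other mice at 26188825 to 30525015 reads per sample. Fewer cells of a type and less RNA per cell cannot be told apart there. Of 18394 genes tested with edgeR, 606 passed an adjusted p of 0.05 (3.29%), and of 206 tested genes of the microglial lists 6 did (2.91%). None of the 8 rule markers and none of the 43 identity genes passed.

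Lists of other cell types are given for bulk as a description, and no list was tested as a whole. Over all genes 3.29% passed the adjusted threshold. The 10 oligodendrocyte genes were all lower in CUS, with a median log2 difference of -0.51, 9 at an unadjusted p under 0.05 (21.5% of all genes were) and 1 past the adjusted threshold. Their sum was 360 to 842 CPM in Control and 372 to 461.5 CPM in CUS mice. Of 10 astrocyte genes 8 were lower (median -0.20, 1 passed), and the sum was 2455 to 2889 against 2160 to 2578 CPM. Of 12 striatal genes 11 were lower (median -0.69), while the 1 that passed was higher and the sum was 1094 to 1696 against 1601 to 1821 CPM. Of 17 neuron genes 15 were higher (median 0.14, 2 passed), with a sum of 35160 to 39500 against 39210 to 40870 CPM. The sums of a pair of further lists did not overlap. Of 8 genes of oligodendrocyte precursors 6 were lower (median -0.13) and 3 passed, 1 of them higher, while the sum was 1291 to 1495 CPM in Control and 1563 to 1699 CPM in CUS mice. Of 5 tested genes of other immune cells 3 were lower (median -0.11). The 1 that passed was lower and was the only 1 with an unadjusted p under 0.05. The sum of the 5 was 18.4 to 20.6 against 12.3 to 15.2 CPM, and the part of that 1 gene in it was not tested. The 7 tested genes of border macrophages were all lower (median -0.35) and none passed, with a sum of 30.5 to 51.6 against 28.1 to 40.1 CPM. Among them Cbr2, a carbonyl reductase, had groups that did not overlap (log2 difference -1.71, adjusted p = 0.0505 in edgeR). Of 10 endothelial genes 8 were higher and none passed, and of 5 choroid plexus genes 3 were lower and 1 passed. The median over all genes was 0.01, and none of these genes was at 0 in a sample. The part of these lists in the bulk values of microglial genes was not tested.

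Csf1r (24.2 to 27.8 against 20.7 to 28.3 CPM), Cx3cr1 (30.5 to 34.8 against 30.3 to 37.4 CPM) and Inpp5d (27.7 to 32.7 against 26.7 to 33.1 CPM) had log2 differences of -0.03 ± 0.08, 0.05 ± 0.07 and 0.05 ± 0.07 (SE). In each of the 3 the Control range lay inside the CUS range. P2ry12 was at 10.3, 7.34, 5.93 and 9.43 CPM in Control and 11.5, 10.1, 9.86, 8.57 and 10.1 CPM in CUS mice. Its log2 difference was 0.31 ± 0.14 (SE, adjusted p = 0.203 in edgeR). The C1q chains did not go one way: C1qc differed by 0.27, C1qa by -0.15 and C1qb by -0.18, with adjusted p of 0.223, 0.577 and 0.562.

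Of the 6 genes that passed in bulk, 4 were lower in CUS. Dusp1, a phosphatase induced by glucocorticoids, lay on chr17:26505590-26508519 and had 14.2, 12.5, 10.1 and 12.8 CPM in Control and 8.30, 7.75, 6.95, 8.30 and 9.01 CPM in CUS mice. It fell by 0.60 on the log2 scale (SE 0.10, adjusted p = 0.0100), without overlap of the groups. Elf1, an ETS transcription factor, fell from 23.2 ± 2.15 to 16.3 ± 1.50 CPM (log2 change -0.48, adjusted p = 0.0119). Megf10, a phagocytic receptor used by astrocytes, fell by 0.44 and Nr3c2, the mineralocorticoid receptor, by 0.23 on the log2 scale (adjusted p = 0.0250 and 0.0399). Elmo1, an engulfment adaptor, rose by 0.26 (adjusted p = 0.0414). Dusp1 and Elf1 passed under all 14 alternatives. With 1 mouse left out, Megf10 was lost without Control replicates 2 (adjusted p = 0.0621) or 4 (0.0507) and without CUS replicates 3 (0.0578), 4 (0.0779) or 5 (0.0505). Nr3c2 was lost without Control replicates 2 (0.130) or 4 (0.0730) and without CUS replicates 1 (0.0714), 2 (0.0560), 4 (0.116) or 5 (0.107). Elmo1 was lost without TMM factors (0.0809), without Control replicate 2 (0.139) and without CUS replicates 1 (0.0508), 2 (0.0522), 3 (0.0803), 4 (0.112) or 5 (0.108). Of the 206 genes, 12 had groups that did not overlap (5.83%), and among all genes 8.49% did.

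Ptgs1, the cyclooxygenase 1 that is found in microglia, was the 1 called gene with a high ratio in members, at 13.3-fold other nuclei, against 0.702 for Dusp1, 3.06 for Elf1, 0.942 for Megf10, 0.936 for Nr3c2 and 3.30 for Elmo1. It lay on chr2:36230426-36252272. Its bulk levels were 11.9, 8.36, 9.73 and 9.64 CPM in Control and 15.4, 12.0, 13.7, 12.3 and 13.2 CPM in CUS mice, so every CUS mouse was above every Control mouse. It rose by 0.46 ± 0.11 (log2, SE, adjusted p = 0.0399 in edgeR). In members Ptgs1 was at 84.1 ± 17.2 CPM in Control and 86.4 ± 29.7 CPM in CUS (SD, n = 4), a log2 difference of 0.15 ± 0.50 (SE). The bulk call was lost without Control replicate 2 (adjusted p = 0.124) or 4 (0.0684) and without CUS replicates 1 (0.0803), 3 (0.0796), 4 (0.0717) or 5 (0.0903). Neither Adarb2 (log2 difference -0.11, adjusted p = 0.617) nor Vip (0.33, adjusted p = 0.0749) passed in bulk.

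**Figure D5:**
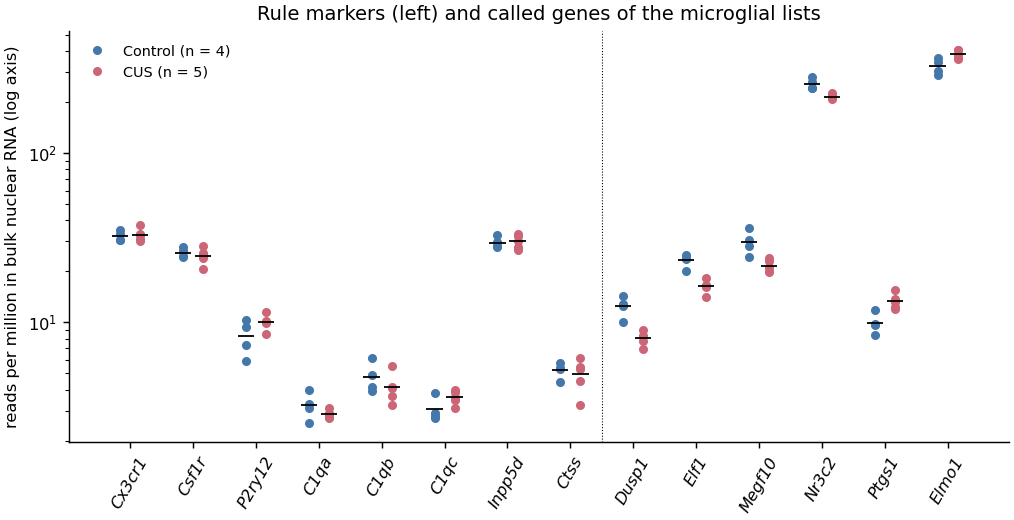
CPM in bulk nuclear RNA of the mPFC for 4 Control and 5 CUS mice (points) with the mean (lines) on a log axis, for the 8 rule markers and the 6 called genes of the microglial lists. The groups overlap for all 8 rule markers, and Ptgs1 is higher in every CUS mouse.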

How the data were processed

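The count values were made by the authors and deposited without normalization: UMIs per gene and barcode for 5000 barcodes in each of 8 neocortex samples, and reads per gene for 9 bulk mPFC samples. Per the Methods, reads were mapped to mm10, exonic and intronic UMIs were counted on the strand of the gene, and 2 batches were used, which the labels do not assign to mice. Batch was therefore not a term. Replicates are separate mice, and no pair of the same group agreed within sampling noise (chi-square per degree of freedom at least 1.39 for members and 3.03 for bulk).

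The members and gene lists were chosen with earlier results of these data known. No doublet caller was run, and the rule's exclusions were applied instead. UMIs of members were summed per mouse. Genes with summed UMIs over 10% of the number of members were tested with R 4.3.3 and edgeR 4.0.16 (TMM factors, quasi-likelihood test, adjusted p under 0.2, the threshold of the study). Bulk counts were kept by filterByExpr and tested at 0.05. DESeq2 1.42.0 was an alternative. The standard error is the size of the log2 change over the square root of F. Shares and depths were compared by exact permutation with scipy 1.17.1. The scripts were tested on simulated data.

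Genes named were the 16 of the rule, those called (up to 12 per direction, filled to 8 with the smallest p among genes without overlap), the 3 highest of each list with their values given for some, the 15 leading genes, and in bulk the called genes of the lists and the rule markers. Further genes of the lists, Meg3, Snhg11, Ccl5 and the genes of the T cell-like nucleus among them, were named after their values were seen. Some genes that the rule names are not reported here. Bulk positions are those in the deposited files (mm10).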

Additional observations from a re-analysis of the deposited data

Results flagged for a closer look

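Of 88 groups of mice examined for a value far from the rest, 7 had one, and chance flags about 1 in 20. These were the median of 2897 UMIs per member in CUS replicate 2, Arhgef1 at 26.2 CPM in Control replicate 2 and at 172.5 CPM in CUS replicate 1, Adarb2 at 164 CPM in CUS replicate 3, Vip at 93.4 CPM in CUS replicate 4, Scg2 at 357 CPM in Control replicate 4 and Apoe at 597 CPM in CUS replicate 1.

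The effect of CUS differed between members and other nuclei, by a fitted difference of effects, for Adarb2 (-2.44 on the log2 scale) and Vip (-2.98). The 5 Control members with at least 3 Vip UMIs held 51 of 53 Vip UMIs, and their part in this difference was not tested.

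Outside the nuclei analysed, 279 barcodes with 200 to 599 genes met the other limits of the rule.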

How the results depend on the processing

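The share difference of CUS minus Control was -0.01 percentage points and changed sign with a floor of 400 genes (0.0481), a floor of 1000 genes (0.0023), no UMI of Slc17a7, Gad1 or Gad2 (0.0384) and, chosen after seeing the data, a floor of 400 genes under 2% neuronal UMIs (0.0140). Leaving out 1 mouse gave -0.13 to 0.12. The difference in median UMIs was 40.6 and ran from -295.5 to 211 with 1 mouse left out. No alternative brought either past its threshold.

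The count of 2 called genes became 1 in DESeq2 and with at least 3 rule markers, and 0 without UMIs of the neuronal genes or with the floor of 400 genes under 2%; leaving out 1 mouse gave 1 (Control replicate 4, CUS replicate 1) to 4 (Control replicate 2). For the difference between members and other nuclei it ran from 2 to 7, with 7 without Control replicate 3 and 4 without CUS replicate 4. Siglech changed sign with the floor of 400 genes under 2% (0.0821), was -1.34 with a floor of 1000 genes, and ran from -0.83 to -0.37 with 1 mouse left out. With 1 mouse left out, Tgfbr1 ran from -0.64 to 0.0931 and Apoe from -0.55 to 1.36. Likewise Ctsb ran from 0.49 to 0.77, Ctsd from 0.39 to 1.505, Adarb2 from -3.73 to -2.44 and Vip from -4.21 to -2.02. The causes were not tested.

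The 6 bulk calls among genes of the microglial lists became 12 with the likelihood ratio test and 14 in DESeq2. Leaving out 1 mouse also gave 2 (Control replicate 2, CUS replicates 4 and 5), 3 (CUS replicate 3), 11 (Control replicate 1) or 12 (Control replicate 3). Over all genes, 606 calls became 1330 with the likelihood ratio test, 1413 in DESeq2, 238 with the replicate block, and 133 to 1508 with 1 mouse left out. With 1 mouse left out, Ctss in bulk ran from -0.16 to 0.0512 and Csf1r from -0.0770 to 0.0192. In the same way C1qa ran from -0.24 to -0.0461, C1qb from -0.30 to -0.0564 and C1qc from 0.23 to 0.37.

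Same-numbered mice did not deviate together (correlations from -0.18 to 0.05 in members and from 0.02 to 0.15 in bulk), so the numbers were not taken as pairs. The replicate block gave 2 calls in members and 3 in the bulk lists (Dusp1, Elf1 and Ptgs1), without Megf10 (adjusted p = 0.0595), Nr3c2 (0.126) and Elmo1 (0.110), and gave the same share and UMI differences, where 0.125 is the smallest p that 4 pairs can give.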
